A study of Mus musculus with 8 samples.

Results

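The 10 genes described here encode proteins that circulate in blood plasma. They include alpha-fetoprotein (Afp), transthyretin (Ttr), the fibrinogen chains Fga and Fgb, albumin (Alb) and fetuin-A (Ahsg). The others are coagulation factors X (F10), II or prothrombin (F2), V (F5) and VII (F7). The genes were grouped as plasma proteins made by fetal gut, a name that these arrays do not settle for each of them. They were chosen by name, as every probe set listed with exactly 1 gene symbol that is one of these, which gave 20 of the 45101 probe sets and 10 of the 18194 genes on the array. The choice was made with the difference between the genotypes already known, so that difference is given here as a description, with no p-value. Alb and Ahsg serve as a guide to liver tissue in a sample. Affymetrix MOE430 2.0 arrays measured RNA of whole small intestine from mouse fetuses at 18.5 days post coitum, in 4 knockouts of Plagl2, a zinc finger transcription factor, and 4 wild-types, with 1 array each. The labels give no strain, litter or sex and do not say which part of Plagl2 is missing, and the extraction text of every sample speaks of wild-type intestine while titles and source names give the genotypes. Nothing says that replicates came from separate litters, so the spread between arrays may hold technical as well as biological error.

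Most plasma proteins are made by hepatocytes. In the fetus the endoderm of the yolk sac and gut transcribes several of the same genes, of which Afp, the fetal relative of albumin, is the best known, and Afp is switched off in liver and gut around and after birth. Factors II, VII and X are vitamin K-dependent proteases of the clotting cascade: factor VII starts it, factor X with its cofactor, factor V, activates prothrombin, and thrombin cuts fibrinogen into fibrin. Transthyretin carries thyroid hormone and, with retinol-binding protein, retinol.

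Several of these genes lie beside each other. In the RefSeq annotation of build GRCm38.p6, Alb (chromosome 5, 90460870 to 90476602) ends 14.1 kb before Afp (90490714 to 90508907), and Afm, encoding the related carrier afamin, begins 10 kb after Afp. F7 (chromosome 8, 13025506 to 13035809) ends 1.5 kb before F10 (13037308 to 13056676), which is followed by the protein Z gene Proz after 3.9 kb. Fgg, Fga (chromosome 3, 83026153 to 83033627) and Fgb (83042246 to 83049863) form 1 cluster. Promoter windows of 300 bases (250 before and 50 after the start, RefSeq, GRCm38.p6) were given for 9 of the 10 genes. The consensus of the PLAG family, to which Plagl2 belongs, was found in 1 of the 9 (F5) and in 19.2% of all 32817 windows of this length, both strands being searched. A match describes letters only. Shown are the windows of the neighbouring genes Alb and Afp, of Fga, and of F10, none of which has a match. Each runs 5′ to 3′ on the gene's strand, which is the plus strand for all 4, and the capital marks the first base of the gene.
Afp (chr5:90490464-90490763): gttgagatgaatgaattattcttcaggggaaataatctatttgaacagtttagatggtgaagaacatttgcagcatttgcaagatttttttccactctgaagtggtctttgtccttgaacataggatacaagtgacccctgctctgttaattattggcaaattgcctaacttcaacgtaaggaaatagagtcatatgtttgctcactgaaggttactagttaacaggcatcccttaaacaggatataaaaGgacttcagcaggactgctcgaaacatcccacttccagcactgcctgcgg
Alb (chr5:90460620-90460919): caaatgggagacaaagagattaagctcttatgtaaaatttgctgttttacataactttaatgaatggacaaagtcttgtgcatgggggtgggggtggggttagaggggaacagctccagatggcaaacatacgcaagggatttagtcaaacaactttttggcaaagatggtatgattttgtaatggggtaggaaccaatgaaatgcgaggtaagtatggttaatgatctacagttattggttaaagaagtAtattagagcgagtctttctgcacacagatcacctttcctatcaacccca
Fga (chr3:83025903-83026202): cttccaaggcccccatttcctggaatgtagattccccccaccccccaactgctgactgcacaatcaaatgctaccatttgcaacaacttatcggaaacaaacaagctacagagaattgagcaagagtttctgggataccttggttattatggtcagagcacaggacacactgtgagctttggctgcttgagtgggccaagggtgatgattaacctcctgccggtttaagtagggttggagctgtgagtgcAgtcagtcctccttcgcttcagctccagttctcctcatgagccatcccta
F10 (chr8:13037058-13037357): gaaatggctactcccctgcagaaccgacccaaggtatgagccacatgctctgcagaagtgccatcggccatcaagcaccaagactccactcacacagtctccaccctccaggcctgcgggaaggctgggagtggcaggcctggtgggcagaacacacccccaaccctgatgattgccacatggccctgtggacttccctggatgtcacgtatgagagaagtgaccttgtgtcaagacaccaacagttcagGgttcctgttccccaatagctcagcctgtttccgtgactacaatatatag

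The genotypes matched their labels. Plagl2 (1417517_at) gave signals of 697 to 824 in wild-type and 3 to 11 in knockout samples. The enterocyte markers (Vil1, Fabp2, Lgals4, Cdh17, Cdx1 and Krt20) summed to 23938 to 26950 in wild-types and 25488 to 32311 in knockouts, so the labelled tissue is present on all 8 arrays. Among them Krt20 rose from 413 to 648 to 2139 to 4412 (log2 fold change 2.55 ± 0.19 SE, adjusted p = 5.89e-06, limma), Cdx1 fell (given with the regulators), and Fabp2, Lgals4, Cdh17 and Vil1 were not called. The 4 smooth muscle markers, none of them called, summed to 6425 to 10182 in wild-types and 7925 to 12469 in knockouts, with the highest sum in replicate 4. The knockouts fell into a pair with raised hepatocyte marker signals, far more so in replicate 4 than in replicate 1, and a pair without. Alb gave 656 and 4646 in knockout replicates 1 and 4 against 4 and 32 in replicates 2 and 3, and Ahsg, which hepatocytes secrete, gave 86 and 453 against 2 and 8. In wild-types Alb was at 15, 22, 122 and 75 and Ahsg at 4, 3, 3 and 13. The other 21 hepatocyte markers on the array summed to 390 to 581 in the 4 wild-types, to 372 and 362 in knockout replicates 2 and 3, to 672 in replicate 1 and to 2032 in replicate 4. Of all 23 markers, 16 were highest in knockout replicate 4, and in 10 of these replicate 1 was next; none was at 0 on any array. The 4 erythroid markers on the array summed to 765 and 816 in knockout replicates 1 and 4 and to 215 to 401 in the other 6 samples. Alas2 (570 and 362 in replicates 1 and 4) and Slc4a1 (177 and 393) made up most of these sums. Epb42 was dim (14 and 37), and Hba-a1 (4 and 24) was highest in wild-type replicate 1, at 39. Pancreatic acinar markers summed to 4833 in knockout replicate 1 and to 699 to 2994 elsewhere. As a measure of RNA quality, control genes probed at both ends had a mean log2 difference (3' end minus 5' end) of -0.055 to 0.0066 in wild-types and 0.017 to 0.098 in knockouts. Every knockout was thus above every wild-type, so as a covariate this difference is confounded with genotype. A call lost with it need not mean a smaller change. Sex ran the same way as the liver markers: Xist, made by female cells, gave 1828 and 1410 in knockout replicates 2 and 3 and 20 to 47 elsewhere. Liver markers and fetal sex therefore cannot be told apart among the knockouts. All 4 wild-types had low Xist (20 to 43). Values without replicates 1 and 4 thus compare knockouts with high Xist to wild-types with low Xist, and there sex cannot be told apart from genotype. The part of any of these measures in the results below was not tested. Results that rest on these arrays are given also without replicate 4 and without replicates 1 and 4 or 2 and 3, the pairs having been chosen after seeing the data.

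**Figure D1:**
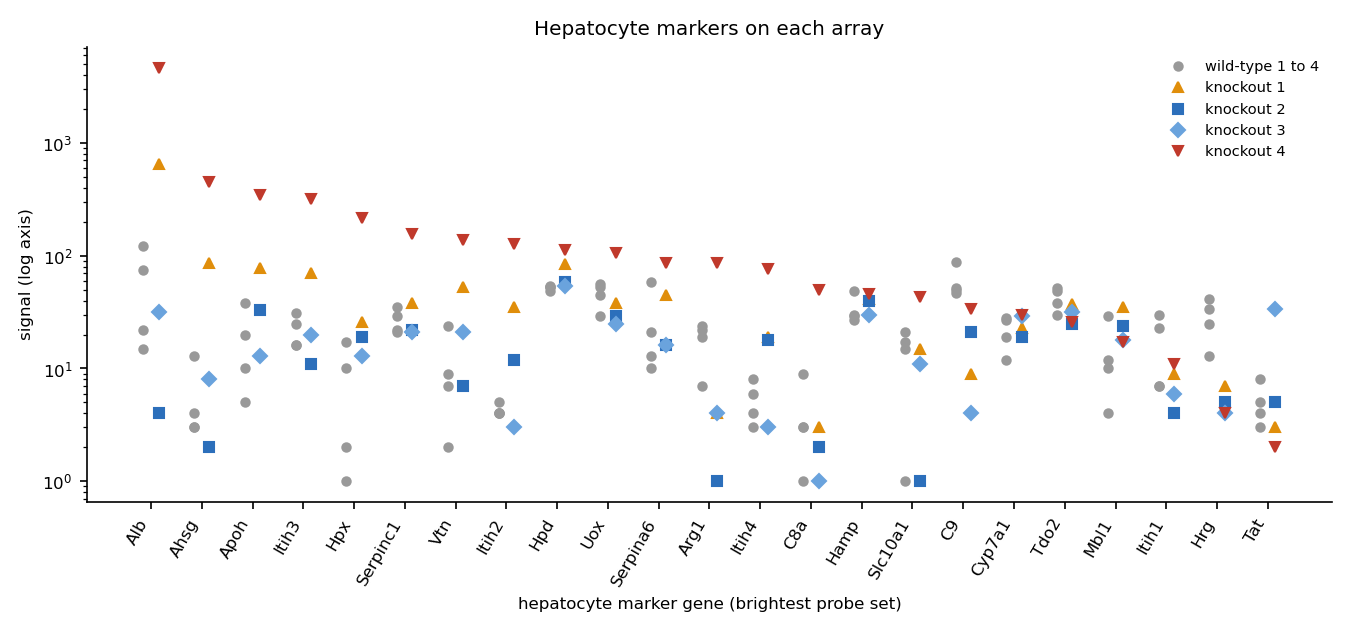
Signal (log axis) of the 23 hepatocyte markers on each of the 8 arrays, ordered by their signal in knockout replicate 4; each point is 1 array. Knockout replicate 4 was highest for 16 of the 23, and Alb reached 4646 there and 656 in knockout replicate 1.

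Afp was bright in every wild-type intestine and dim in the knockouts without liver markers. Probe set 1416645_a_at, the one with the highest mean log2 signal, gave 6256, 6496, 5360 and 5677 in wild-types 1 to 4 and 976, 108, 122 and 4818 in knockouts 1 to 4. The groups did not overlap, but knockout replicate 4 lay just under the lowest wild-type, and replicate 1 lay between it and the other knockouts. Replicates 4 and 1, the highest for Afp among knockouts, were also the highest for Alb and Ahsg. The wild-type mean was 5947 ± 521 and the knockout mean 1506 ± 2245 (SD, n = 4), a log2 fold change (knockout minus wild-type, on the log2(signal + 16) scale) of -3.47 ± 0.91 (SE). It was -4.53 ± 0.56 without knockout replicate 4 and -5.51 ± 0.11 without replicates 1 and 4. With replicates 1 and 4 as the knockouts it was -1.44 ± 0.46. Probe set 1416646_at gave 5428, 5933, 5016 and 5143 against 266, 47, 62 and 3056, and 1436879_x_at 6546, 6825, 5835 and 5979 against 396, 53, 51 and 5236. Both kept the same order of knockout samples at the top, with log2 fold changes of -4.40 ± 0.93 and -4.32 ± 1.07 (SE). The remaining probe sets were dim: 1436881_x_at gave 70 to 116 in wild-types and 9 to 84 in knockouts, which overlap, and 1436880_at gave 2 to 8 on all arrays. In bulk tissue, fewer cells that make a transcript and less of it per cell cannot be told apart.

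Ttr was lower in every knockout by each of its 4 probe sets. Probe set 1454608_x_at gave 5856, 4033, 4089 and 5826 in wild-types and 1254, 1163, 633 and 3279 in knockouts. The highest knockout was again replicate 4, and it stayed below the lowest wild-type. Means were 4951 ± 1028 and 1582 ± 1164 (SD, n = 4), a log2 fold change of -1.87 ± 0.37 (SE), -2.30 ± 0.22 without knockout replicate 4, -2.48 ± 0.24 without replicates 1 and 4, and -1.26 ± 0.32 with these as the only knockouts. Probe set 1451580_a_at gave 2057, 1314, 1305 and 2369 against 273, 373, 176 and 907, with -2.19 ± 0.39 (SE). The other probe sets, 1455913_x_at and 1459737_s_at, gave -2.01 ± 0.42 and -1.99 ± 0.45 (SE). The suffixes _x and _s mark probe sets that can bind more than 1 transcript. In knockout replicates 2 and 3, without liver markers, Ttr kept signals of 1163 and 633. Its partner in retinol transport, Rbp4 (1426225_at), gave 85 to 152 in wild-types and 80 to 106 in knockouts 1 to 3, with 310 in knockout replicate 4 (log2 fold change 0.14 ± 0.34 SE).

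F10, the protease that converts prothrombin to thrombin, was low in all 4 knockouts, replicate 4 included. Probe set 1449305_at gave 1023, 1108, 697 and 1069 in wild-types and 40, 24, 35 and 96 in knockouts. The lowest wild-type was far above the highest knockout. Means were 974 ± 188 and 48.8 ± 32.2 (SD, n = 4), and the log2 fold change was -4.03 ± 0.27 (SE). It was -4.33 ± 0.18 without replicate 4, -4.43 ± 0.20 without replicates 1 and 4, and -3.62 ± 0.27 with these as the only knockouts, and it was thus as large without the arrays that carry liver markers. The dimmer probe sets had no overlap either: 1418993_s_at gave 89 to 103 against 2 to 19, and 1418992_at 54 to 77 against 1 to 13. Their log2 fold changes, -2.32 ± 0.23 and -1.90 ± 0.24 (SE), are made smaller by the added 16.

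The fibrinogen chains were set apart by knockout replicate 4. Fga (1424279_at) gave 558, 408, 209 and 345 in wild-types and 181, 49, 16 and 1161 in knockouts. Knockouts 1 to 3 lay below all wild-types and replicate 4 above them, so the groups overlap. The log2 fold change of Fga was -1.34 ± 0.84 (SE) over all 8 arrays, -2.34 ± 0.50 without replicate 4 and -3.04 ± 0.36 without replicates 1 and 4. With those as the only knockouts its sign turned, to 0.36 ± 0.59. Fgb (1428079_at) had the same order of knockouts relative to wild-types, with 51, 137, 90 and 85 against 40, 2, 1 and 809. Its log2 fold change was -0.74 ± 0.96 (SE) over all arrays, -1.99 ± 0.41 without replicate 4, -2.55 ± 0.31 without replicates 1 and 4, and 1.07 ± 0.81 with only these as knockouts. The gene of the third chain, Fgg (1416025_at), gave 8, 9, 29 and 28 in wild-types and 100, 2, 5 and 984 in knockouts. Its highest values were likewise those of knockout replicates 4 and 1.

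The groups overlapped for F2, F5 and F7. F2 (1418897_at) gave 101, 78, 36 and 94 in wild-types and 50, 45, 63 and 168 in knockouts, the highest value being that of knockout replicate 4 (log2 fold change -0.03 ± 0.35 SE, and -0.38 ± 0.27 without that replicate). F5 (1449269_at) gave 26 to 39 against 18 to 36 (-0.19 ± 0.21 SE), and its other probe set 1418907_at gave 9 to 32 against 3 to 30. F7 (1419321_at) gave 7 to 39 against 21 to 37 (0.27 ± 0.27 SE). The F5 and F7 signals lie close to 23, the mean below which probe sets were left out of the fit.

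Alb and Ahsg were set by the same pair of knockouts. The highest wild-type Alb signal was 122, and Ahsg did not pass the filter. Alb (1425260_at) had a log2 fold change of 1.92 ± 1.34 (SE) over all arrays, 0.48 ± 0.97 without knockout replicate 4, -1.0 ± 0.58 without replicates 1 and 4 and 4.83 ± 0.75 with these as the only knockouts. Its sign depends on which knockouts are used. Without detection calls, the arrays do not settle which of the 10 genes wild-type gut transcribes. Of the representative probe sets, those of Afp, Ttr, F10, Fga, Fgb, F2 and F5 had signals above 23, the limit of the filter, on all 4 wild-type arrays, those of F7 and Alb on some of them and that of Ahsg on none.

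**Figure D2:**
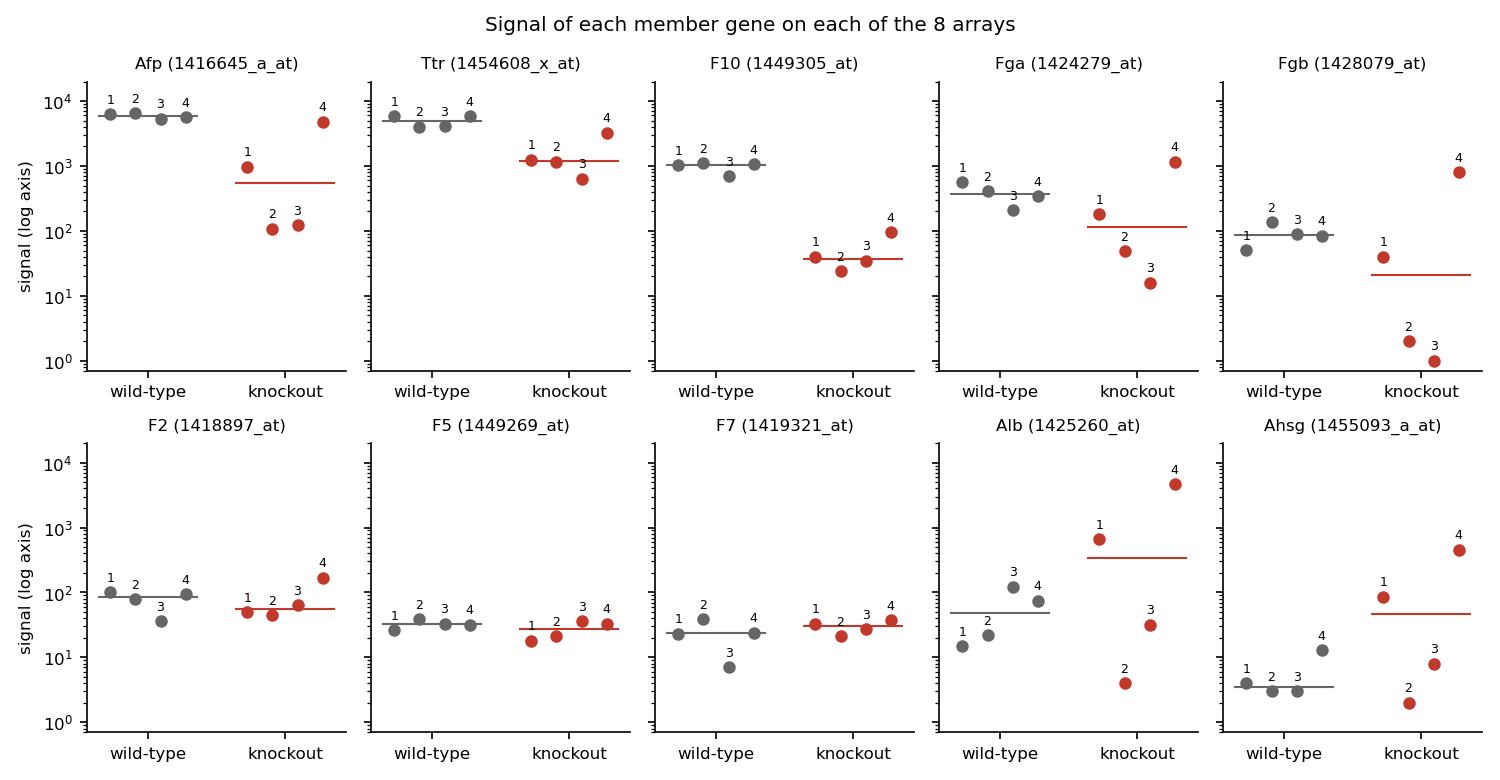
Signal (log axis) of the probe set with the highest mean log2 signal of each of the 10 genes, in 4 wild-type (grey) and 4 knockout (red) samples; digits are replicate numbers and lines are group medians. Knockout replicate 4 is the highest knockout for Afp, Ttr, F10, Fga, Fgb, F2, F7, Alb and Ahsg, and still lies at 96 for F10, below the lowest wild-type at 697.

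Of the 20 probe sets, 17 passed the filter and 11 of those, from Afp, Ttr and F10, met the call rule used for all probe sets in the direction of lower signal (limma, Benjamini-Hochberg adjusted p under 0.05 over 27022 probe sets), with 0 in the other. Over all probe sets tested 6.7% were called lower and 5.28% higher, and nothing is read from the members' count, which is no test of them because the contrast chose them. Groups without overlap were seen in 10 of the 20, 3 each of Afp and F10 and 4 of Ttr, the knockout being lower in each, beside 6.25% of all 45037 probe sets other than controls. Among tested probe sets the groups did not overlap with the knockout lower in 9.26% and higher in 7.7%. On the log2 scale, knockout replicate 4 exceeded the mean of replicates 2 and 3 by 7.23 for Alb, 5.56 for Fgb, 5.21 for Afp (1416645_a_at), 4.69 for Fga, 4.50 for Ahsg, 1.91 for Ttr (1454608_x_at), 1.41 for F2 and 1.31 for F10 (1449305_at). Of the 21 hepatocyte markers outside the members, 12 exceeded it by more than 1 and 4 lay below it, with a median of 1.51 and a range from -0.85 for Tat to 3.42 for Itih3. Over the 27022 tested probe sets the median was 0.06 and 1.97% exceeded it by more than 1. The excess of knockout replicate 1 was smaller in each of these members, from 4.44 for Alb and 2.92 for Afp down to 0.54 for Ttr, 0.31 for F10 and -0.07 for F2. In replicate 1, 4 of the 21 markers outside the members exceeded that mean by more than 1 and 3 lay below it, with a median of 0.40. Over the 27022 tested probe sets the median for replicate 1 was 0.03, and 0.94% exceeded that mean by more than 1.

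**Figure D3:**
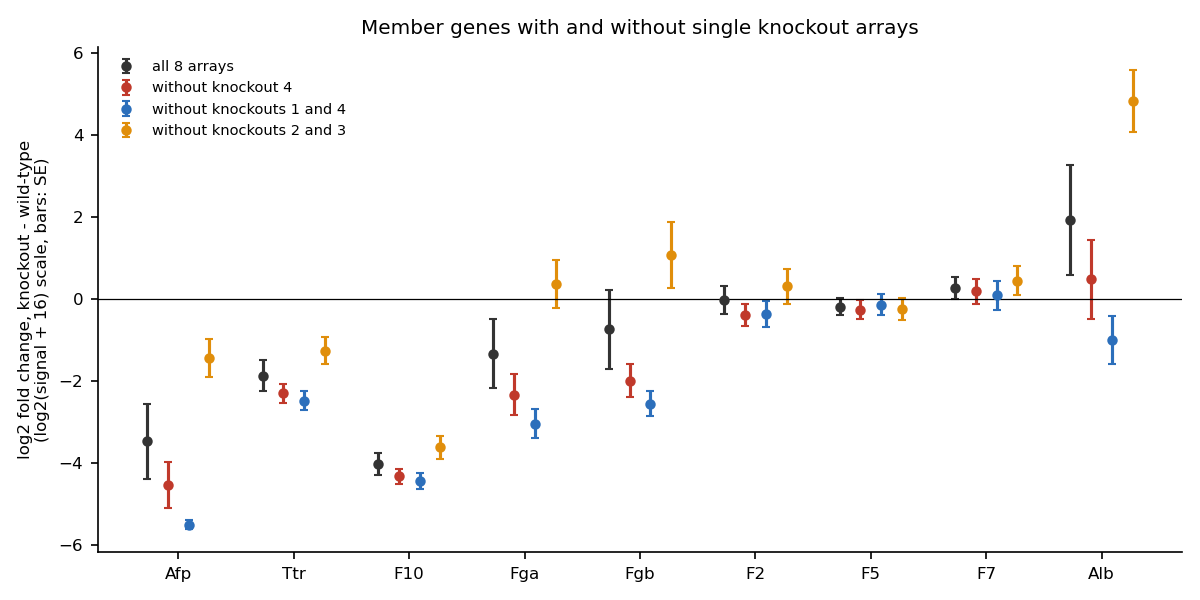
Log2 fold change (knockout minus wild-type, log2(signal + 16) scale) with its SE for the 9 genes with a tested probe set, over all 8 arrays and with knockout arrays left out. F10 stays between -4.43 and -3.62 in all 4 fits, while Fga runs from -3.04 to 0.36 and Alb from -1.0 to 4.83.

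The profiles most like those of the leading genes were found by the root mean square difference of mean-centred log2 signals over the 8 arrays, among 12309 other genes. For Afp the nearest were the Y-linked genes Eif2s3y (0.77), Uty (0.95) and Kdm5d (1.13), which were at 0 to 9 in knockout replicates 2 and 3 and present elsewhere, followed by Fga (1.17) and F10 (1.23). For F10 the nearest were Fcgrt (0.46), which encodes the neonatal Fc receptor, Nox4 (0.48), Slc17a5 (0.49), the lysosomal sialic acid exporter, Pdzk1ip1 (0.51) and Cdkn1c (0.51), a cell cycle inhibitor. Fcgrt gave 4221 to 7632 in wild-types and 358 to 588 in knockouts. For Ttr they were Lrmda (0.31), Lce1h (0.36), Nrn1 (0.38), Hpgds (0.41) and Pid1 (0.43). Of these, Lrmda (55 to 78 in wild-types against 4 to 43 in knockouts), Lce1h (59 to 169 against 11 to 59) and Hpgds (65 to 108 against 5 to 32) were dim. Their likeness to Ttr rests partly on knockout signals below 23, the limit of the filter. Nrn1 (1428393_at) gave 1164 to 1463 against 199, 298, 204 and 566, with its highest knockout, like that of Ttr, in replicate 4.

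Genes of coagulation and fibrinolysis outside the members were mostly not called. Of 34 listed, 21 were tested, 4 of them were lower and 0 higher in the knockout (limma, adjusted p under 0.05; 4 were higher at an unadjusted p under 0.05), beside 8.5% of 12838 genes lower and 6.6% higher. The median log2 fold change was 0.06, against 0.03 over all genes. Vkorc1 (1452770_at), the reductase that recycles vitamin K for carboxylation of factors II, VII, IX and X, fell from 1552, 1727, 1495 and 1225 to 763, 708, 625 and 718 (log2 fold change -1.07 ± 0.11 SE, adjusted p = 7.27e-05). Proz (1450201_at), encoding the vitamin K-dependent protein Z, fell from 475, 376, 283 and 455 to 172, 156, 197 and 173 (-1.10 ± 0.16, adjusted p = 0.000654). Tfpi (1451791_at), the inhibitor of the start of the cascade, fell from 361 to 507 in wild-types to 183 to 288 (-0.85 ± 0.15, adjusted p = 0.00322), while its other 3 probe sets were not called (-0.07, 0.24 and -0.55). F9 (1427393_at), the protease that activates factor X, was dim and fell from 46 to 68 to 6 to 29 (-1.06 ± 0.24, adjusted p = 0.0129). At the probe sets named for them, none of these genes has its highest knockout value above its lowest wild-type value. Such a gap, with the knockout lower, was seen in 9.26% of all tested probe sets. The groups overlapped at the Tfpi probe set with 0.24 (40 to 76 in wild-types, 64 to 87 in knockouts). They overlapped also at that with -0.07 (46 to 92 and 49 to 84), but not at that with -0.55. Vkorc1, Proz, Tfpi and F9 were called also without knockout replicate 4, where Tfpi2 joined them (-0.59, adjusted p = 0.0495), and without replicates 1 and 4. The background of called genes was 8.05% lower and 6.29% higher without replicate 4, and 6.11% lower and 4.93% higher without replicates 1 and 4. With replicates 1 and 4 as the only knockouts F9 was not called (adjusted p = 0.0676), nor was it with Xist as a covariate (0.132). With the control end difference as a covariate neither F9 (-1.17, adjusted p = 0.117) nor Tfpi (-0.92, 0.0538) was called, though neither log2 fold change shrank. Among genes with a higher mean in the knockout the smallest p were those of Thbd (thrombomodulin, 0.36 ± 0.11 SE, adjusted p = 0.0625), Lman1 (0.26 ± 0.09, 0.0749) and Plat (tissue plasminogen activator, 0.49 ± 0.20, 0.152), none of them called. The carboxylase Ggcx had 0.06 ± 0.26 (SE, adjusted p = 0.917), and Mcfd2, which with Lman1 serves the export of factors V and VIII, had -0.35 ± 0.21 (adjusted p = 0.336).

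Among 30 other plasma proteins, 16 were tested, 3 were lower and 1 higher (median log2 fold change -0.03), beside 8.5% and 6.6% of all genes. Afm (1427440_a_at) fell from 494, 656, 520 and 526 to 157, 122, 99 and 191 (log2 fold change -1.86 ± 0.17 SE, adjusted p = 2.87e-05). Like Afp, its neighbour and relative, it was present in every wild-type. Its highest knockout, at 191, lay below its lowest wild-type, at 494. Apom (1419095_a_at), the apolipoprotein that carries sphingosine-1-phosphate, fell from 231, 195, 167 and 160 to 42, 5, 37 and 102 (-1.95 ± 0.39, adjusted p = 0.0066), a call that ended with Xist as a covariate (-1.25, adjusted p = 0.0679) and with the control end difference as one (0.144). Igf2 (1448152_at), the fetal growth factor, fell from 5355 to 6211 to 1687 to 2053 (-1.60 ± 0.08, adjusted p = 4.01e-07). Clu (1437458_x_at), encoding the chaperone clusterin, rose from 143 to 173 to 203 to 556 (1.05 ± 0.25, adjusted p = 0.0148). The call of this probe set ended when wild-type replicate 1 (adjusted p = 0.0509) or knockout replicate 1 (0.0522) was left out. It ended also with either covariate (0.111 with Xist and 0.27 with the control end difference). The other Clu probe sets, dimmer than this one, were called higher too, at 1.15, 1.18 and 1.32 (limma, adjusted p = 0.00187, 0.00247 and 0.00315). Without knockout replicates 2 and 3 they stayed called (adjusted p = 0.0254, 0.0138 and 0.0219), while 1437458_x_at did not (0.0726). Their fits with a covariate are not given here. Cfi (1418724_at), a complement protease, gave 515 to 1709 against 102 to 829 (-1.62 ± 0.53, adjusted p = 0.0736) and was called lower without knockout replicates 1 and 4 (-2.40, adjusted p = 0.0223). Saa3, an acute phase protein, was called lower without knockout replicate 4 (-0.89, adjusted p = 0.0343) and not over all arrays (0.547). Kng1 (from the coagulation list), Igfbp1 and Hp, singled out with their signals known, were seen almost only in knockout replicate 4. Kng1 gave 577 there and 1 to 24 on the other arrays, Igfbp1 483 against 1 to 19, and Hp 255 against 1 to 6. None of these 3 passed the filter. Not all dim plasma protein genes had this peak. Orm2 gave 2 in knockout replicate 4 and 17 in wild-type replicate 4, and Saa1 gave 16 and 36. Orm1 gave 6 in knockout replicate 4 and 14 in knockout replicate 3.

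**Figure D4:**
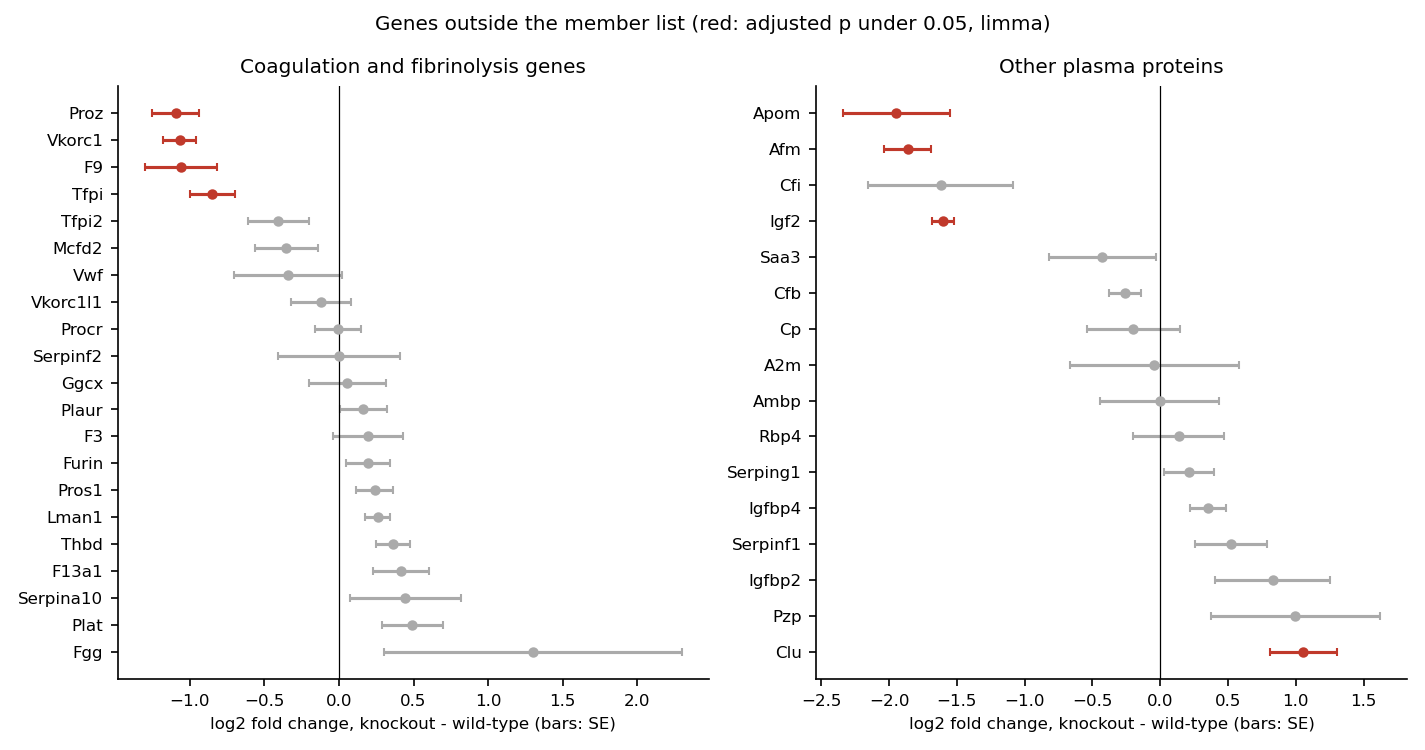
Log2 fold change (knockout minus wild-type) with its SE for the 21 tested genes of coagulation and fibrinolysis and the 16 tested genes of other plasma proteins, red where the adjusted p was under 0.05. Vkorc1, Proz, F9, Tfpi, Afm, Apom and Igf2 lie to the left of 0 and Clu to the right, and Fgg has the widest bar on the left panel.

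The hepatocyte markers outside the members were listed as a guide to liver RNA, but not all of them rose where Alb and Ahsg did. Hrg, which did not pass the filter, gave 13 to 41 in wild-types and 4 to 7 in knockouts. Of 22 listed, 9 were tested, and 1 was lower and 0 higher (limma), beside 8.5% and 6.6% of all genes. At an unadjusted p under 0.05, 1 was higher, and the median log2 fold change was 0.40. The lower one was C9 (1422815_at), a terminal complement component, at 47, 50, 88 and 52 in wild-types and 9, 21, 4 and 34 in knockouts (log2 fold change -1.25 ± 0.29 SE, adjusted p = 0.0158), a call that ended without knockout replicate 1 (adjusted p = 0.0501), with Xist as a covariate (0.107) and with the control end difference as one (0.387). Of the markers with a higher mean in the knockout, Apoh, Itih3 and Hpd had the smallest p, with log2 fold changes of 1.38 (adjusted p = 0.19), 0.96 (0.366) and 0.40 (0.224). With knockout replicates 1 and 4 as the only knockouts their log2 fold changes were 2.52, 2.18 and 0.73. Without these replicates they were 0.23, -0.27 and 0.08. The pair was set apart by its high hepatocyte markers, so these values describe that choice and are no test of the markers.

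Of 24 regulators of liver and gut plasma protein genes, 21 were tested, with 5 lower, 1 higher and a median log2 fold change of -0.13. Over all 12838 genes 8.5% were lower and 6.6% higher. Cebpb (1418901_at) and Cebpa (1418982_at), leucine zipper factors of liver and gut, fell from 746 to 931 to 424 to 454 (-0.94 ± 0.10 SE, adjusted p = 6.29e-05) and from 715 to 979 to 442 to 534 (-0.81 ± 0.12, adjusted p = 0.000728). Also lower were the bile acid receptor gene Nr1h4 (-1.09 ± 0.10, adjusted p = 3.38e-05), Nr0b2, its target (-3.09 ± 0.26, adjusted p = 1.38e-05), and the intestinal homeobox gene Cdx1 (-1.01 ± 0.16, adjusted p = 0.00113). Foxa3 was higher (0.58 ± 0.12, adjusted p = 0.0078), but not without knockout replicates 1 and 4 (adjusted p = 0.0581) without replicates 2 and 3 (0.0558), or with the control end difference as a covariate (0.111). Hnf4a (1427001_s_at), a main activator of plasma protein genes, gave 1743 to 2360 in wild-types and 2052 to 2580 in knockouts (0.10 ± 0.11 SE, adjusted p = 0.622). The known repressors of Afp, Zhx2 (1455210_at, 42 to 87 against 70 to 100) and Zbtb20 (1438443_at, 105 to 171 against 89 to 122), had 0.37 ± 0.19 (adjusted p = 0.249) and -0.44 ± 0.16 (adjusted p = 0.107). The other tested probe sets of Zbtb20 ran from -0.33 (adjusted p = 0.258) to 0.39 (0.559), and none was called. Of other genes that fall after birth as Afp does, Gpc3 (1450990_at), a cell surface proteoglycan, fell from 1298 to 1622 to 530 to 890 (-0.93 ± 0.14, adjusted p = 0.00114) and Igf2 fell as above, while Dlk1 (1449939_s_at) gave 320 to 626 against 297 to 1013 (0.51 ± 0.31, adjusted p = 0.337). Gpc3 and Igf2 were called without knockout replicate 4 and without replicates 1 and 4, and knockout replicate 4 gave 789 and 1991.

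Around each locus of members the 3 nearest protein-coding genes with a tested probe set on each side were taken, up to 786 kb away. Genes that overlap a locus were added, which brought in Ckap5 at F2. Of these 43, 9 were lower and 1 higher (7 and 1 without knockout replicate 4), beside 8.5% and 6.6% of all genes, with a median log2 fold change of -0.03. Around F7 and F10 these were Proz, Atp11a at 157 kb (-1.77 ± 0.15 SE, adjusted p = 1.18e-05), a phospholipid flippase, and Tubgcp3 at 353 kb (-1.12 ± 0.11, adjusted p = 3.76e-05), while Mcf2l, Pcid2 and Cul4a were not called (0.26, 0.03 and -0.35, adjusted p = 0.438, 0.918 and 0.0546). Around Alb and Afp, Afm and Rassf6 at 94.2 kb (-0.58 ± 0.10, adjusted p = 0.00327) were lower, and Adamts3, Ankrd17, Cox18 and Pf4 were not called. Around Fga and Fgb, Lrat at 122 kb (-1.37 ± 0.20, adjusted p = 0.000692), which esterifies retinol, was lower, and Fgg, Plrg1, Rbm46, Sfrp2 and Tlr2 were not called. Around Ttr, B4galt6 (1.12 ± 0.16, adjusted p = 0.000643), a galactosyltransferase that begins 10.3 kb away, was higher, and Dsc2, Dsc3, Dsg2, Rnf125 and Trappc8 were not called. Dnajb11 and Tbccd1 at 12.4 and 34.3 kb from Ahsg (-0.64 and -0.55) and Arhgap1 at 13.7 kb from F2 (-0.38) were lower (adjusted p = 0.0108, 0.033 and 0.0369). Without knockout replicate 4 neither Tbccd1 (adjusted p = 0.0747) nor Arhgap1 (0.0806) was called, and each lost its call also when other single arrays were left out. Dnajb11 was not called without knockout replicates 1 and 4 (adjusted p = 0.0547) or with the control end difference as a covariate (0.0511). Eif4a2, Etv5, Rfc4 and St6gal1 around Ahsg, the 6 tested genes around F5 (Slc19a2, Ccdc181, Blzf1, Mettl18, BC055324 and Scyl3) and the other tested genes around F2 (Ckap5, Zfp408, Atg13, Lrp4, 1110051M20Rik and Arfgap2) were not called.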

How the data were processed

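Affymetrix MOE430 2.0 arrays of 4 wild-type and 4 Plagl2 knockout small intestines were analysed. Per the labels, RNA was copied with a T7 oligo-dT primer into biotinylated cRNA. The authors deposited linear signal intensities, 1 for each probe set on each array. The 2% trimmed mean of each array is about 150.05, so a scaling is already in these values. How the signals were summarised from probes is not given in the sources used here. There were no detection calls to use. Symbols came from the platform annotation, which lists 34958 of the 45101 probe sets with 1 symbol, 932 with several and 9211 with none, and loci and promoter windows from RefSeq (GRCm38.p6). Levels of probe sets of different genes were not set against each other. For arrays, their number limits the precision.

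Signals were taken as log2(signal + 16). The 64 control probe sets and the 40% of the others with the lowest mean were left out, which left 27022. The linear model was that of limma 3.58.1 (R 4.3.3; lmFit, eBayes with intensity trend, genotype as the only term). A probe set was called at a two-sided Benjamini-Hochberg adjusted p under 0.05, and each gene took the values of its brightest tested probe set. The fit was tested on simulated data. The members, lists and tests were chosen with earlier results of these data known. Named are all members, up to 5 called genes per list and direction (the 3 of smallest p where none was called), the nearest genes around the members, the 5 nearest profiles of Afp, F10 and Ttr, and the label check Plagl2. Other genes (among them Krt20, Rbp4, Ggcx, Mcfd2, Saa3, Fgg, Tfpi2, Cfi, Kng1, Igfbp1, Hp, Hnf4a, Zhx2, Zbtb20 and Dlk1) were chosen after their values were seen. Alternatives were other filters, offsets of 1 and 64, quantile normalization, no trend, array weights, the replicate number as a block, Xist or the 3' to 5' control ratio (the control end difference) as a covariate, the mean of a gene's probe sets, and arrays left out. Genes without a probe set listed under their symbol alone, and some withheld items, are not reported here.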

Additional observations from a re-analysis of the deposited data

Results flagged for a closer look

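Of 88 groups of 4 arrays examined (member probe sets and called genes, within a genotype, on the log2 scale), 4 had a sample further from the rest than Dixon's 95% limit allows, and chance alone gives about 1 in 20. Nr0b2 was at 138 in wild-type replicate 3, against 267 to 296 in the other wild-types. C9 was at 88 in wild-type replicate 3, against 47 to 52. Ahsg was at 13 in wild-type replicate 4, against 3 to 4, a signal too dim to interpret, and the Afp probe set 1436880_at was at 4 in knockout replicate 1, against 2 in the others. The high Alb, Afp, Fga and Fgb signals of knockout replicate 4 were not picked out by this rule, because knockout replicate 1 lies between it and the other knockouts.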

How the results depend on the processing

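Of 187 log2 fold changes of member genes under the alternatives, 174 stayed within 1 SD of the value reported and 0 of the called members changed sign. The members that were not called did change sign. Fga ran from -3.04 to 0.37, Fgb from -2.55 to 1.07 and F2 from -0.38 to 0.31. F5 ran from -0.301 to 0.104 and F7 from -0.147 to 0.513, and the sign of Alb changed as given above. Fgb and F2 stayed within 1 SD in all 21 settings all the same, so the count of 174 does not show that a sign is stable. With Xist as a covariate Afp was at -1.41, Fga at 0.37 and Alb at 4.81. These are close to the values without knockout replicates 2 and 3, the arrays with high Xist (-1.44, 0.36 and 4.83), so the 2 fits are not separate checks. F10 was at -3.22 with an offset of 64 and at -2.75 as the mean of its probe sets. Probe sets lower and higher, 1811 and 1427, were 1164 and 751 with the replicate block and 919 and 471 with the 3' to 5' ratio. The ratio was higher in every knockout than in every wild-type. Of genes that lost a call with it, F9 (-1.17), Tfpi (-0.92), Foxa3 (0.60), Dnajb11 (-0.82), Tbccd1 (-0.82) and Arhgap1 (-0.42) had no smaller log2 fold change. Apom (-1.79), Clu (0.83) and C9 (-0.71) had smaller ones. Higher ones were 2631 with array weights, 755 with Xist and 820 without knockout replicates 2 and 3. With one array left out they were 1302 to 2169 lower and 880 to 2082 higher. The replicate numbers do not pair the samples: correlations of deviations were -0.01, -0.05, -0.27 and -0.12, and 0 of 8 samples correlated best with their own number. Hepatocyte markers lower were 2 with no filter, 0 with the 60% filter, replicate block, Xist, the ratio or without knockout replicates 2 and 3, and 0 to 1 with one array left out. Those higher were 3 with Xist or without knockout replicates 2 and 3, which is no test because hepatocyte markers set the pairs of knockouts. Coagulation genes lower were 2 with the ratio. Those higher were 1 with the 60% filter, quantile normalization, Xist, the mean of probe sets or without knockout replicates 2 and 3, 3 with array weights, and 0 to 1 with one array left out. Other plasma proteins higher were 3 with array weights or without knockout replicates 2 and 3, 0 with the ratio, and 0 to 2 with one array left out. Regulators lower were 9 with array weights, and those higher were 0 with the replicate block, the ratio, or without knockout replicates 1 and 4 or 2 and 3. Neighbouring genes higher were 3 with array weights and 2 with Xist or without knockout replicates 2 and 3. The causes were not tested. Signals near 23 carry little information, which limits F5, F7, F9, C9 and Ahsg.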
